A study of Prunus persica with 18 samples.

Results

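Only 3 of the 26873 genes in the count table kept at most 3 raw counts in each of the 12 libraries of T1 and T3 and reached at least 10 raw counts in each of the 6 libraries of T5. These genes, PRUPE_6G260600, PRUPE_8G244500 and PRUPE_8G249000, were chosen by those counts, so that the gap between T5 and the earlier time points is what selected them and is given here as a description, without a test. The data were RNA-Seq read counts of axillary buds of the flat nectarine Platinet 1, a Prunus persica cultivar, from untreated shoots in an orchard. The groups were apical and basal buds, from the upper and the lower part of the shoot, collected at T1, T3 and T5. Counted in days from full bloom (DAFB), T1 was day 45, T3 was day 58 and T5 was day 79. Each of the 6 groups had 3 biological replicates, each pooling the buds of several shoots, and all groups shared the cultivar and the lack of any gibberellin spray.

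An axillary bud of a peach shoot holds a meristem that either stays vegetative or passes to floral development during the summer, before floral organs can be seen. The passage is steered by signals from the leaves and by genes of meristem identity, and it is followed by the formation of floral organs with their own cell types. In whole buds, more cells of a type and more RNA per cell cannot be told apart. No name or product was found for the 3 genes in the sources used here, and 0 of the identifiers matched the RefSeq gene table (assembly Prunus_persica_NCBIv2). They are therefore described by their identifiers and no role is stated for them.

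Total counts per library were between 21114469 and 47286272, and for T5 between 25801050 and 47286272. The counts of 6 meristem and cell division genes named by the study (TFL1, CEN, CYCB1.2, CYCB1.4, SPL9.1 and SPL9.2) were looked up, and all had at least 36 counts in every library. This shows that they were read and does not identify the tissue. For each of the 6, both the lowest and the highest count were smaller at T5 than at T1 and T3, as for SPL9.1 (503 to 1401 against 2121 to 4612). None of the 15 genes that the study names by identifier was among the 3 genes. APETALA1 (AP1, PRUPE_1G290600), which encodes a MADS-box factor of floral meristem identity, had between 7 and 37 counts at T5 and between 6 and 24 counts at T1 and T3, and so missed both limits.

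PRUPE_6G260600 had 0, 1 and 0 counts in the apical and 0, 0 and 0 counts in the basal libraries of T1. At T3 it had 3, 0 and 0 counts in apical and 3, 0 and 1 counts in basal buds. At T5 it had 23, 34 and 26 counts in apical and 41, 22 and 35 counts in basal buds. It was thus without a count in 8 of the 12 earlier libraries, and the libraries of both positions overlapped at T5.

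PRUPE_8G244500 had 2, 0 and 0 counts in apical and 0, 3 and 0 counts in basal buds at T1. At T3 it had 1, 0 and 1 counts in apical and 0, 3 and 3 counts in basal buds. At T5 it had 32, 36 and 10 counts in apical and 15, 19 and 30 counts in basal buds. Its apical T5 replicate 3, with 10 counts, lay exactly on the limit, and 6 of the 12 earlier libraries had no count.

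PRUPE_8G249000 had 0, 1 and 0 counts in apical and 2, 0 and 1 counts in basal buds at T1. At T3 it had 0, 0 and 3 counts in apical and 0, 1 and 1 counts in basal buds. At T5 it had 18, 14 and 16 counts in apical and 23, 12 and 14 counts in basal buds. Here too 6 of the 12 earlier libraries had no count, and at T5 the apical raw counts lay within the range of the basal ones. Scaled to the library total, the basal values lay within the range of the apical ones instead.

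**Figure D1:**
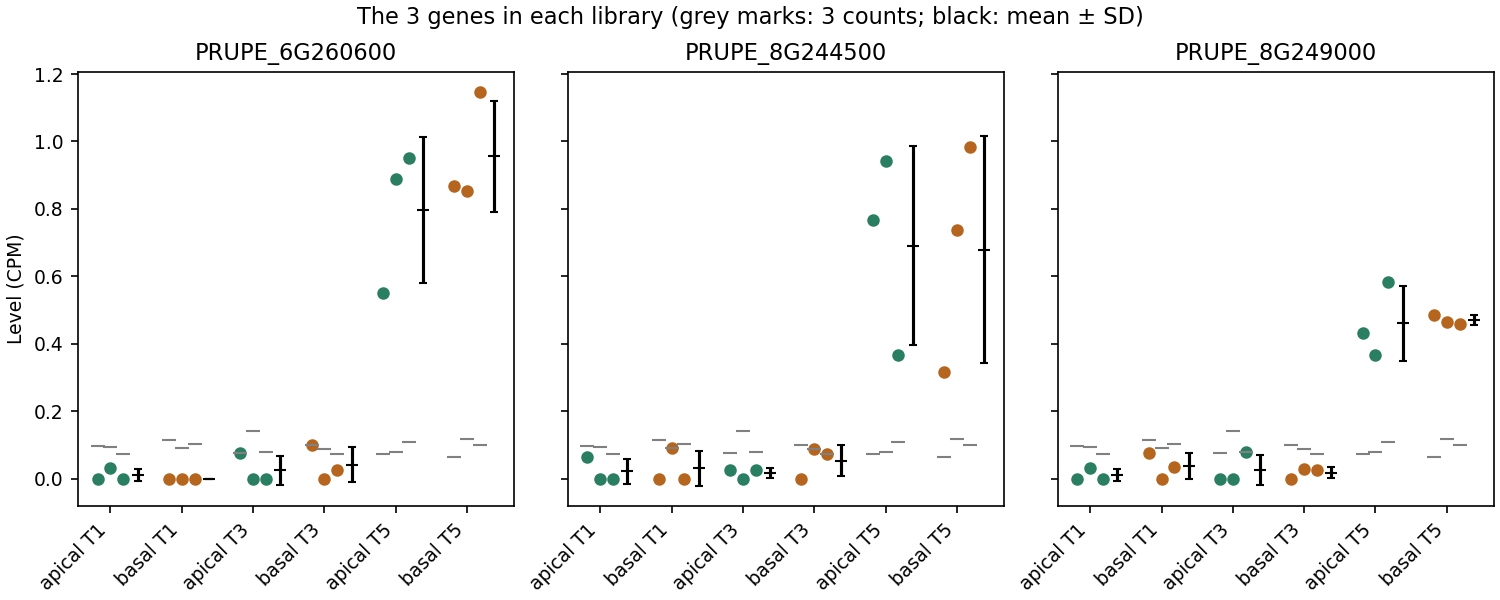
Level of the 3 genes in CPM (counts scaled to the library total, vertical axis) in each of the 18 libraries, with apical (green) and basal (brown) buds at each time point, the group mean ± SD (n = 3) in black and the CPM of 3 counts in that library in grey. The 6 T5 libraries of PRUPE_6G260600 lie between 0.551 and 1.15 CPM, while its T1 and T3 libraries lie between 0 and 0.101 CPM.

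Scaled to counts per 1000000 counts of the library (CPM), PRUPE_6G260600 reached 0.797 ± 0.215 CPM in apical and 0.956 ± 0.166 CPM in basal buds at T5 (SD, n = 3 each). PRUPE_8G244500 reached 0.691 ± 0.296 CPM in apical and 0.679 ± 0.337 CPM in basal buds, and PRUPE_8G249000 0.461 ± 0.112 CPM in apical and 0.470 ± 0.0145 CPM in basal buds. Read numbers were thus low at T5 as well, and none of the 3 genes exceeded 1.15 CPM in any library. All folds against the earlier time points are lower bounds, computed against 3 counts in the shallowest T1 or T3 library, which is 0.142 CPM. On that floor the mean over the T5 libraries was at least 6.17-fold higher for PRUPE_6G260600, at least 4.82-fold higher for PRUPE_8G244500 and at least 3.28-fold higher for PRUPE_8G249000. With the lowest T5 library in place of the mean, the bounds were 3.88-fold, 2.23-fold and 2.58-fold. The limits of the rule alone fix a fold of 1.49 between the deepest T5 and the shallowest earlier library.

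Pooled over libraries, PRUPE_6G260600 had 181 counts at T5, or 0.858 CPM (exact Poisson 95% interval 0.738 to 0.993), and 8 counts at T1 and T3 together, or 0.0201 CPM (0.00867 to 0.0396). PRUPE_8G244500 had 142 counts at T5, or 0.673 CPM (0.567 to 0.793), and 13 counts before, or 0.0326 CPM (0.0174 to 0.0558). PRUPE_8G249000 had 97 counts at T5, or 0.460 CPM (0.373 to 0.561), and 9 counts before, or 0.0226 CPM (0.0103 to 0.0429). These intervals cover counting error only and leave out the spread between replicates. Each of the 3 genes thus had some reads before T5, and they are called silent there only in the sense of at most 3 counts in a library.

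The few earlier reads were spread over both positions and both time points. Over the 3 genes together, they amounted to 4 counts in apical and 6 counts in basal buds at T1 and to 8 counts in apical and 12 counts in basal buds at T3, against 209 and 211 counts in apical and basal buds at T5. In CPM, the sum over the 3 genes was 0.0422 ± 0.0365 in apical and 0.0672 ± 0.0296 in basal buds at T1, 0.0677 ± 0.0587 and 0.112 ± 0.010 at T3 and 1.95 ± 0.229 and 2.10 ± 0.461 at T5 (SD, n = 3). The earlier sums rest on at most 5 counts in a library and are capped by the rule, so that no order is read from them.

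The rule set the same limits for both positions, and apical and basal buds were compared at T5. The values compared are those on which the rule required at least 10 counts in every library of both positions, so that genes with few reads in 1 position could not enter, and the estimates describe the 3 genes that were left. The 6 T5 libraries were fitted with edgeR (quasi-likelihood F-test), and 19129 genes had enough reads to enter. Calls required an FDR (Benjamini-Hochberg adjusted p) under 0.01 together with a 2-fold or larger difference. All 3 genes passed the filter. None of them was called in either direction (0 of 3), against 52 of the 19129 genes tested (0.272%, with 0.12% higher in apical and 0.152% higher in basal buds), and 0 of 3 had an unadjusted p under 0.05 in edgeR, against 24.3% of all genes tested. By DESeq2's Wald test 0 of 3 were called as well, against 1.56% of the genes tested. The edgeR count over all genes varied widely when a library was left out, which also leaves fewer libraries in that position. In its principal component plot, the study found a single apical T5 replicate next to the basal ones. Its text does not number that replicate, and all 6 T5 libraries were kept in the main fit. The 52 calls became 445 without apical T5 replicate 1, 39 without apical T5 replicate 2 and 3 without apical T5 replicate 3. They became 1 without basal T5 replicate 1, 8 without basal T5 replicate 2 and 6 without basal T5 replicate 3. With the replicate block there were 94. At such shares a count of 0 among 3 genes shows nothing particular to them.

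For PRUPE_6G260600 the log2 fold change of apical over basal buds was -0.30 (SE 0.33, 95% interval -1.04 to 0.44, edgeR FDR-adjusted p = 0.62, between 0.550 and 0.936 over 12 alternatives). For PRUPE_8G244500 it was 0.065 (SE 0.48, 95% interval -1.02 to 1.15, edgeR FDR-adjusted p = 0.95, between 0.675 and 0.964 over the edgeR alternatives and 0.9999 by DESeq2's Wald test). For PRUPE_8G249000 it was -0.083 (SE 0.33, 95% interval -0.83 to 0.67, edgeR FDR-adjusted p = 0.91, between 0.713 and 0.997 over 12 alternatives). The sign changed when a library was left out for PRUPE_8G244500 (-0.23 without apical T5 replicate 2 and -0.36 without basal T5 replicate 1) and for PRUPE_8G249000 (0.041 without apical T5 replicate 2). The interval of PRUPE_8G249000 lay within 2-fold in both directions. Those of PRUPE_6G260600 and PRUPE_8G244500 reached beyond 2-fold towards basal buds, and that of PRUPE_8G244500 also towards apical buds. These intervals take no account of the rule, which required at least 10 counts in every T5 library of both positions. Genes with few reads in either position could not enter, so these intervals do not exclude a 2-fold difference. Position differences within these intervals could not be told from none in these libraries.

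Apical and basal libraries overlapped in CPM at T5 for all 3 genes. Over all genes tested the share without overlap was 29.9%, and nothing is read from the 3 genes against it. The exact permutation test over the 6 libraries (two-sided, 3 against 3, smallest possible p = 0.1) gave p = 0.6 for PRUPE_6G260600 and p = 0.9 for each of PRUPE_8G244500 and PRUPE_8G249000. The median log2 fold change over the 3 genes was -0.083, beside 0.018 over all genes tested. The 200 genes that had at least 10 counts in all 18 libraries and rose most at T5 on the log2 scale had a median of 0.031, with 2 called higher in apical and 3 called higher in basal buds.

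**Figure D2:**
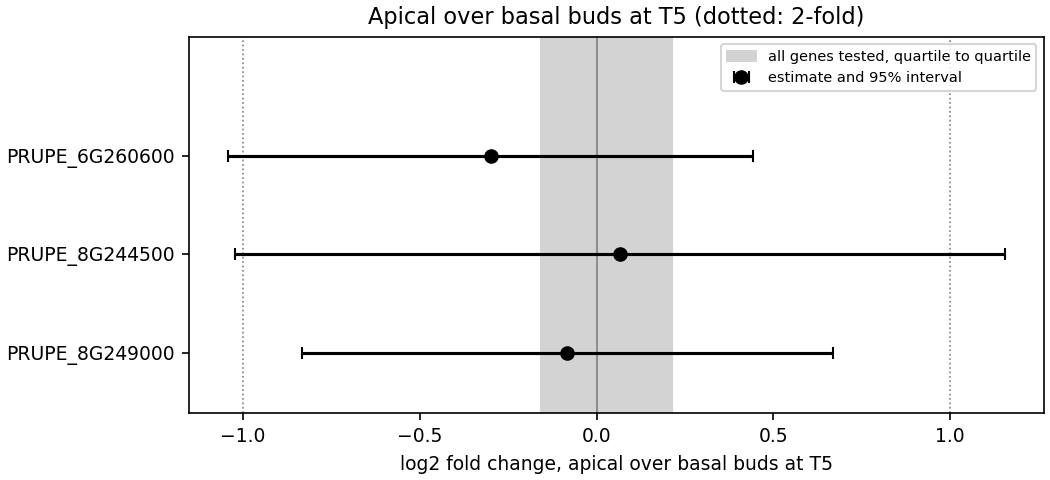
Log2 fold change of apical over basal buds at T5 (horizontal axis) with its 95% interval for the 3 genes, beside the range from the lower to the upper quartile of the 19129 genes tested (grey band, -0.16 to 0.21). All 3 intervals include 0, and the estimates lie between -0.30 and 0.065.

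The spread among T5 replicates differed among the genes. PRUPE_8G244500 had a coefficient of variation of 42.8% in apical and 49.6% in basal buds, while its read numbers alone would give 19.6% and 21.7%. In that gene the lowest values were 0.365 CPM in apical replicate 3 and 0.317 CPM in basal replicate 1, and the highest were 0.942 CPM in apical replicate 2 and 0.983 CPM in basal replicate 3. PRUPE_6G260600 had a coefficient of variation of 27.0% in apical and 17.4% in basal buds, with 19.0% and 17.5% from counting alone. For PRUPE_8G249000 it was 24.3% in apical and 3.08% in basal buds, where counting alone would give 24.7% in basal buds, so that no spread beyond counting was seen there. The median over the 1470 genes with T5 means between 0.372 and 1.10 CPM was 29.4% in apical and 26.4% in basal buds. Those genes were chosen by their mean alone. The rule required at least 10 counts of the 3 genes in every T5 library, which limits how low a replicate could be. The 2 sets are therefore not alike, and no difference in spread is read from them.

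The number of genes that met the rule depended strongly on its limits. Of the 5534 genes with at most 3 counts in each T1 and T3 library, 5196 also had at most 3 counts in each T5 library, and 55 reached 10 counts in at least 1 T5 library. At least 10 counts in all apical T5 libraries were found for 8 genes, and in all basal T5 libraries for 8 genes, of which the 3 described here had both. No gene of the 5534 reached 10 counts in all T5 libraries of 1 position with at most 3 counts in those of the other. The opposite pattern, at most 3 counts at T5 and at least 10 in each T1 and T3 library, was met by 2 genes, and the pattern with at most 3 counts at T1 and at least 10 at both T3 and T5 by 0 genes.

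With at most 5 counts allowed at T1 and T3 the number of genes was 14, and with at most 10 it was 37, while with at most 1 or with 0 it was 0. With at least 5 counts required at T5 there were 11 genes, with at least 20 only PRUPE_6G260600 was left, and with at least 50 there were 0. When counts were first scaled to the mean library size, PRUPE_8G249000 alone met the limits, as the other 2 genes had 3 counts in a library below the mean depth. Leaving out a library only removes a limit, so that none of the 3 genes could be lost in the 18 cases and genes could only be added. The number of genes was 7 without apical T3 replicate 3, 6 without basal T3 replicate 2 and 5 without apical T5 replicate 3.

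**Figure D3:**
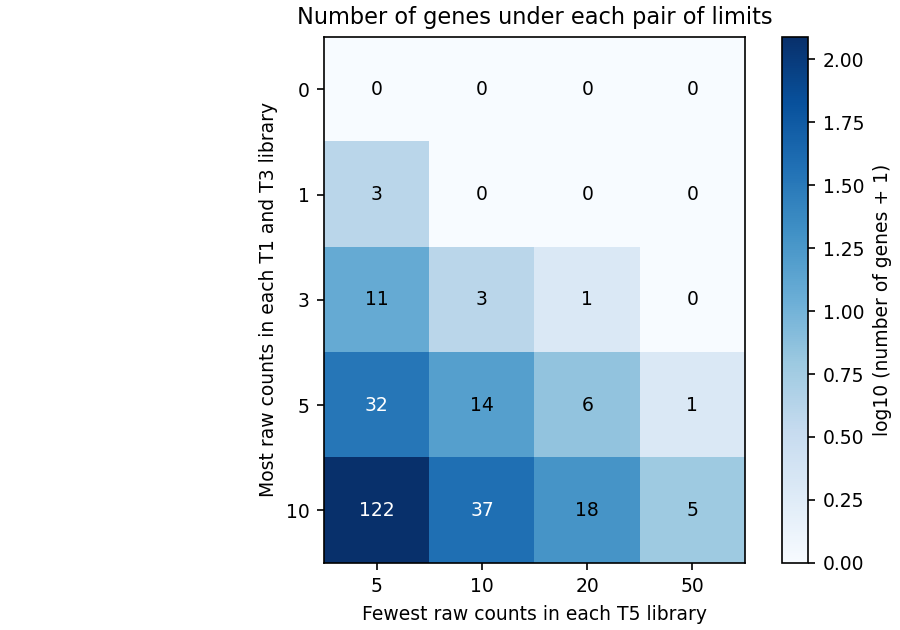
Number of genes (printed in each cell, colour on a log10 scale) by the most raw counts allowed in each T1 and T3 library (rows) and the fewest raw counts required in each T5 library (columns). The limits used here, 3 and 10, give 3 genes, and the neighbouring cells give 0, 1, 11 and 14.

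Just outside the rule, 5 genes missed it by a single count in a single library, 4 of them with 4 counts in a T3 library and PRUPE_3G123300 with 9 counts in basal T5 replicate 3. Of the 5, PRUPE_2G295700 and PRUPE_5G096600 had the highest T5 levels. PRUPE_2G295700 had 4 counts in apical T3 replicate 3, and at T5 it had 21, 29 and 39 counts in apical and 90, 105 and 149 counts in basal buds. PRUPE_5G096600 had 4 counts in basal T3 replicate 2, and at T5 it had 76, 131 and 79 counts in apical and 58, 25 and 55 counts in basal buds. These values are given without a test, and just inside the T5 limit stood PRUPE_8G244500 and PRUPE_8G249000, whose lowest T5 libraries had 10 and 12 counts. On the limit for T1 and T3 stood all 3 genes, with 3 counts in 2 libraries for PRUPE_6G260600, in 3 libraries for PRUPE_8G244500 and in 1 library for PRUPE_8G249000.

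The identifiers of this gene set carry the chromosome number and a running number along it. By them, PRUPE_6G260600 is on chromosome 6 and the other 2 genes are on chromosome 8, which holds 10.1% of the genes in the table, 45 identifiers apart. Chromosome positions in bases were not used here. The 6 genes whose identifiers directly precede or follow the 3 genes were then examined, a choice made after the counts had been seen. Of these, 3 had too few reads to be tested, and PRUPE_6G260700 and PRUPE_8G249100 had 0 counts in all 18 libraries.

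Of the other 3 adjacent genes, PRUPE_8G244600 rose at T5 in both positions. It had 2815, 3011 and 1617 counts in apical T5 and 443, 183 and 271 counts in apical T3 libraries, and T5 over T3 was 2.97 on the log2 scale (SE 0.20, edgeR FDR-adjusted p = 5.0e-06). In basal buds it had 3619, 2272 and 3280 counts at T5 and 247, 232 and 290 counts at T3, and T5 over T3 was 3.78 on the log2 scale (SE 0.15, edgeR FDR-adjusted p = 7.5e-09). The same call, higher at T5, was made for 8.67% of the genes tested in apical and 8.55% of those tested in basal buds. PRUPE_8G244400, on the other side of PRUPE_8G244500, had log2 fold changes of 1.26 in apical (adjusted p = 0.025) and 0.58 in basal buds (adjusted p = 9.7e-06, below 2-fold) in edgeR and was not called. Without apical T3 replicate 1, the apical value was 0.84 (adjusted p = 0.00012 in edgeR), below 2-fold. Its apical T3 libraries lay between 16.1 and 65.7 CPM. The study describes a single apical T3 replicate as an outlier, which its text does not number. The main apical values and the 8.67% include all apical T3 libraries.

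PRUPE_8G248900, which precedes PRUPE_8G249000, had log2 fold changes of T5 over T3 of 0.49 in apical (adjusted p = 0.19) and 0.55 in basal buds (adjusted p = 0.11) in edgeR. Beside PRUPE_8G244600 lies PRUPE_8G244700, which had at most 2 counts in each T1 and T3 library, 28, 18 and 3 counts in apical T5 and 19, 12 and 13 counts in basal T5 libraries, and missed the rule only in apical T5 replicate 3. In that library, the shallowest of apical T5 with 27373887 counts, PRUPE_8G244500 also had its lowest apical count. Scaled for depth, PRUPE_8G244500 had 0.365 CPM there against 0.766 and 0.942 CPM in the other apical T5 libraries, and PRUPE_8G244700 had 0.11 against 0.67 and 0.47 CPM. PRUPE_6G260600 (0.950 CPM) and PRUPE_8G249000 (0.584 CPM) had their highest apical levels in the same library. Thus PRUPE_8G244500, PRUPE_8G244600 and PRUPE_8G244700, which follow each other in the numbering, all had more reads at T5. For PRUPE_8G244500 the rule required this, and PRUPE_8G244700 was named for its counts. Other genes within 3 identifiers also had higher means at T5 than at T1 and T3, as PRUPE_6G260400 (15.9 against 6.85 CPM) and PRUPE_8G249200 (4.14 against 1.82 CPM). Some had lower means, as PRUPE_8G244800 (14.5 against 24.4 CPM). Nothing particular to the run is read from this. The library kit marks the strand, but the counting setting is not given in the sources used here. Where neighbouring gene models overlap or resemble each other, it is therefore not known whether their reads were told apart. Whether PRUPE_8G244500 and PRUPE_8G244600 overlap or resemble each other was not examined. The part of PRUPE_8G244600 in the counts of PRUPE_8G244500 was not tested.

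**Figure D4:**
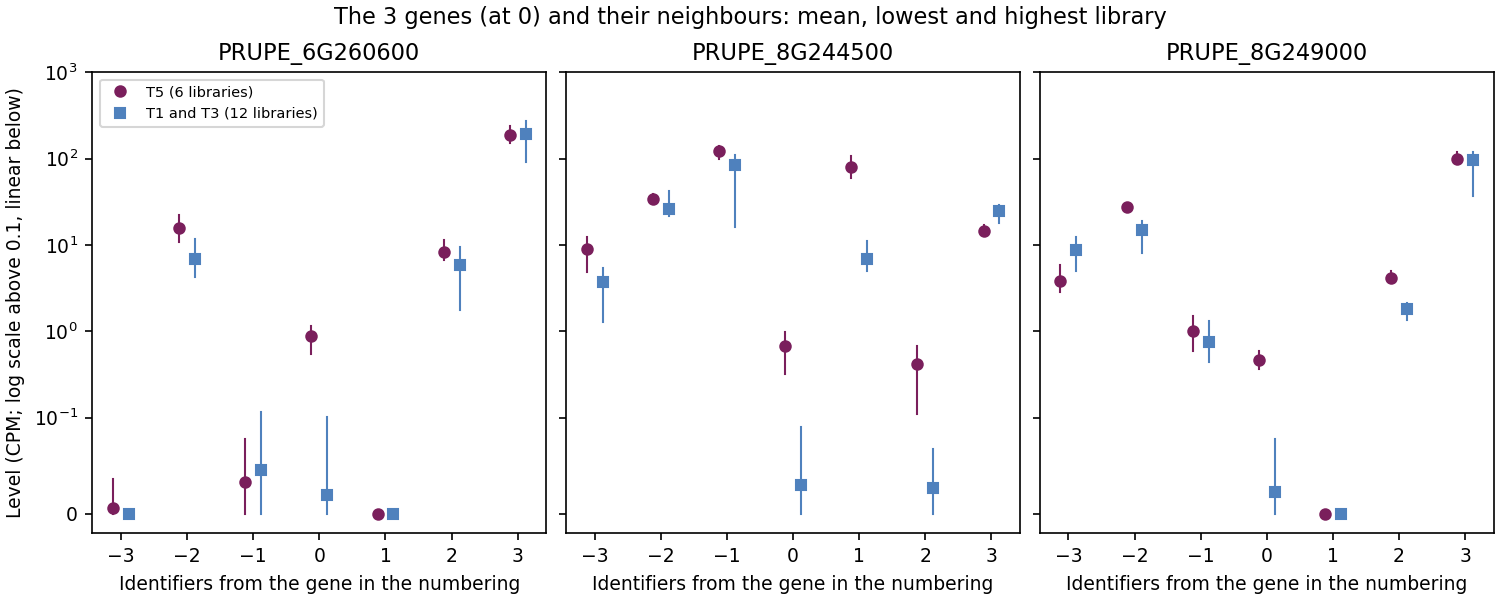
Mean level in CPM (vertical axis, logarithmic above 0.1 and linear below) at T5 (circles) and at T1 and T3 together (squares) of each of the 3 genes, at 0 on the horizontal axis, and of the genes up to 3 identifiers away, with lines from the lowest to the highest library. PRUPE_8G244600, at 1 beside PRUPE_8G244500, averaged 79.6 CPM at T5 and 6.97 CPM at T1 and T3.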

How the data were processed

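RNA-Seq counts of 18 libraries in 6 groups were used. The authors extracted RNA from buds, sequenced TruSeq Stranded mRNA libraries on an Illumina NextSeq, checked the reads with FastQC, aligned them with Hisat2 to the peach genome v.2.0.a1 and used HTSeq to count reads over gene models. Raw read counts were deposited, without normalization and with replicates kept apart. The counting mode and strand setting are not given in the sources used here. Columns were matched to samples by their names, which give time point, position and replicate.

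The 3 genes and all lists were chosen with earlier results of these data known. CPM is the count divided by the column sum and multiplied by 1000000. Apical and basal T5 buds, and T5 and T3 in the 9 libraries of each position, were compared with edgeR 4.0.16 (quasi-likelihood test, TMM, filterByExpr, Benjamini-Hochberg) in R 4.3.3. The test was tried on simulated counts for 19129 genes, where 94% of 200 genes changed 4-fold between positions were called, with 0 false calls. The changed genes were drawn at random from genes of all levels. The share called at 2-fold, or among genes with as few reads as the 3 genes, was not computed. The 94% therefore does not describe the 3 genes. Alternatives were DESeq2 1.42.0, other scalings, no filter, all 18 libraries in the fit, a replicate block and left-out libraries. By the methods of the study, each replicate's shoots gave both its apical and its basal buds, if the names follow the shoots. The deviations of same-numbered T5 libraries correlated across genes with r = 0.26, 0.0063 and -0.074. Those of unlike-numbered libraries lay between -0.29 (apical 2 with basal 1) and 0.28 (apical 2 with basal 3), so that no pairing is read from these values. They do not exclude a pairing by shoots. The main fit took no account of one, and the replicate block was an alternative. The genes to be named were to be the members with the highest T5 level, those called between positions, those in lists of products, those named by the study and those nearest the limits. Without annotation no list of products could be counted. Adjacent genes were added after the counts had been seen. Plots were made in Python 3.11.15 using matplotlib 3.10.9.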

Additional observations from a re-analysis of the deposited data

How the results depend on the processing

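The number of genes under the rule was 3 and moved to 0 with at most 0 or at most 1 counts at T1 and T3, to 14 with at most 5 and to 37 with at most 10. It was 11 with at least 5, 1 with at least 20 and 0 with at least 50 counts at T5, 1 with counts scaled to the mean library size, and between 3 and 7 with each library left out in turn, which could only add genes. The median lower bound of the fold, 4.82, was 7.58 with the floor at the mean depth and 2.58 with the lowest T5 library. The number of the 3 genes called between positions at T5 was 0 in each direction under the 14 alternatives, which says little, since over all genes these called between 0 (glmTreat) and 1202 (FDR below 0.05 with no fold limit). The edgeR calls over all genes, 52, were 299 by DESeq2, 157 without the filter, 238 with all 18 libraries in the fit, 94 with the replicate block and between 1 and 445 with each T5 library left out. The median log2 fold change of the 3 genes, apical over basal buds at T5, stayed between -0.36 and -0.0028, and with the replicate block it was -0.087. The block changed no call among the 3 genes. With each T5 library left out in turn, PRUPE_8G244500 lay between -0.36 and 0.49 and PRUPE_8G249000 between -0.29 and 0.041. PRUPE_8G244500 turned to -0.23 without apical T5 replicate 2 and to -0.36 without basal T5 replicate 1, and PRUPE_8G249000 to 0.041 without apical T5 replicate 2. For the adjacent genes, with alternatives chosen after seeing the data, the adjusted p of PRUPE_8G244600 stayed below 0.01 in all 8 alternatives of each position, and DESeq2 called PRUPE_8G244400 in apical buds (log2 fold change 1.27, adjusted p = 0.0036 from DESeq2's Wald test). The summed level of the 3 genes at T5 was 1.15 CPM in apical and 1.15 CPM in basal buds without PRUPE_6G260600. At T5 each gene rests on 10 to 41 counts in a library, and for PRUPE_8G244500 the replicate spread (42.8% in apical and 49.6% in basal buds) was above that from counting (19.6% and 21.7%).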
